A study of Homo sapiens with 12 samples.

Results

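The genes described here are the 84 rows of the 44659 in the count table whose symbol has the form of a cytosolic ribosomal protein (RPL or RPS with a number, RPLP0 to RPLP2, and RPSA). Of these, 52 have a symbol of the large subunit (RPL) and 32 one of the small subunit (RPS). They include 7 paralogues, genes related in sequence to another member (RPL3L, RPL7L1, RPL10L, RPL22L1, RPL26L1, RPL39L and RPS27L). Symbols of other forms, such as FAU, RPL36AL and RACK1, which also encode ribosomal proteins, are outside the 84 and are given apart.

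The cytosolic ribosome reads mRNA and joins amino acids into protein. It consists of a small subunit, which holds the mRNA and checks each codon, and a large subunit, which forms the peptide bond, and each is built from ribosomal RNA and ribosomal proteins. In vertebrates the mRNAs of ribosomal proteins start with a C followed by a run of pyrimidines, the 5′ terminal oligopyrimidine (TOP) motif, through which mTOR signalling and the RNA-binding protein LARP1 are known to govern their translation and stability. Cells make these mRNAs in large amounts, and growth signals, the MAPK pathway among them, are known to raise ribosome production.

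The RNA came from A375 cells, an established human melanoma line with an activating mutation of BRAF. In the MAPKi experiment, cells received 500 nM vemurafenib, a BRAF inhibitor, together with 500 nM cobimetinib, a MEK inhibitor, for 24 h (MAPKi), and were compared with cells given DMSO, all in medium with 2 mM glutamine (Gln) and serum. In the Gln depletion experiment, cells were kept for 24 h in medium without Gln (Gln-depleted). They were compared with cells in control medium with 2 mM Gln (CTRL). Each of the 4 groups had 3 libraries, the MAPKi experiment was sequenced in one batch and the Gln depletion experiment in another, and in the latter replicate 1 of both groups came from experimental batch 1 and replicates 2 and 3 from batch 2. Nothing in the labels says whether replicates were separate cultures, so that p-values measure the spread between these libraries. All 12 libraries were made after depletion of ribosomal RNA, and between 31056296 and 40071368 reads were counted per library. The labels name RNA of the cytoplasmic fraction, whereas the methods of the RNA-seq name total RNA. Of a list of 7 melanocyte genes, SOX10, MITF, DCT, PMEL and S100B were counted in every library, and the others are not described here. In the MAPKi experiment all 7 had enough reads to be tested, and in the Gln depletion experiment 6 had. The 7 markers of other cell types (leukocytes, endothelium, keratinocytes, epithelium and hepatocytes) had between 0 and 17 reads. In bulk RNA of this kind, fewer cells of a type and less RNA per cell cannot be told apart, and all values are relative to the other mRNAs of the library.

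Of the 84 members, 73 had a mean of at least 200 reads per library. RPL3L and RPL10L, known from muscle and testis, had 0 reads in all 12 libraries, which allows up to 3 reads in each. The other 9 (RPL7A, RPL17, RPL36A, RPS2, RPS3A, RPS9, RPS10, RPS18 and RPS25) had at most 200 reads per library, apart from RPS2 in MAPKi replicate 1 with 1215. RPL17, RPL36A and RPS10 overlap read-through genes of the annotation, RPS9, RPS18, RPS25 and RPL7A have further copies in the table, and 33 rows are named as pseudogenes of members, so that the authors' counting may have split or dropped their reads. Values across well-counted members are given below for 72 of the 73. Of the members, 24 overlap another protein-coding gene, and whether counting used strand is not given in the sources used here.

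The 5′ ends of the members show the sequence feature they are known for. RefSeq (GRCh38.p14) promoters were at hand for 67 of the 84 members, and the motif searched was a C at the first transcribed base followed by 4 bases that are each C or T, on the transcribed strand alone. It was present at a listed start of 47 of the 67 members (70.1%), against 1404 of all 27305 genes with a promoter (5.14%), and within 10 bases of a start in 58 of the members (86.6%), against 38.4% of all genes. The following stretches of 25 bases, 10 before the start and 15 from it, are those of members on which the results below turn. Capitals mark the run of pyrimidines that begins with a C at the start, and lines without capitals have no such run at that start.
RPS12: cggatgaggcCTCTTTCCCTgccgc
RPL26: gcgtgtagttCTCTTCCCTTTTgcg
RPL26L1: tccaggggtcggcgaacgaaacgcg
RPS27: cgctttcgctCCTTTCCggcggtga
RPS27L: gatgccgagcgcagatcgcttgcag
RPL22: cgctcacctcCCTTTCTaactccgc
RPL22L1: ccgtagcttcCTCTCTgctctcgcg
RPL35: cgcctacttcCTCTTTCCCTCggag
RPS26: acataacctcgattttcttccgcca
RPS4X: ctccagccccaatttctacgcgcac

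These lie at chr6:132814559-132814583 (RPS12, plus strand), chr17:8383179-8383203 (RPL26, minus strand), chr5:172958719-172958743 (RPL26L1, plus strand, the first of 2 listed starts), chr1:153990752-153990776 (RPS27, plus strand), chr15:63157463-63157487 (RPS27L, minus strand), chr1:6199581-6199605 (RPL22, minus strand), chr3:170870181-170870205 (RPL22L1, minus strand), chr9:124861943-124861967 (RPL35, minus strand), chr12:56041908-56041932 (RPS26, plus strand) and chrX:72277234-72277258 (RPS4X, minus strand). Each spans the annotated start of its transcript and the beginning of the 5′ UTR. The partner genes RPL26, RPS27 and RPL22 carried the run, and of the 5 paralogues with a promoter only RPL22L1 did, while RPL26L1 had none at either start. RPS26 and RPS4X did not carry it at the listed start.

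In MAPKi-treated cells the ribosomal protein mRNAs took a smaller part of the transcriptome. The members together held 3.95, 4.04 and 4.10% of the reads on protein-coding genes in the DMSO libraries and 2.85, 3.08 and 3.07% in the MAPKi libraries. The share was 4.03% ± 0.08 (SD, n = 3) with DMSO and 3.00% ± 0.13 with MAPKi, a difference of -1.03 percentage points, and the groups did not overlap. In the Gln depletion experiment the share was 3.86, 3.65 and 4.14% in the CTRL libraries and 4.66, 5.00 and 5.94% in the Gln-depleted libraries, so that it was higher in every Gln-depleted library than in every CTRL library. The means were 3.89% ± 0.25 and 5.20% ± 0.66 (SD, n = 3), a difference of 1.31 percentage points. With 3 libraries against 3, the exact two-sided permutation test can give no p below 0.1, and it gave 0.1 in both experiments. The nuclear noncoding RNA 7SK (RN7SK) moved as well, with 2.04% ± 0.11 of all reads with DMSO, 4.17% ± 0.22 with MAPKi, 1.86% ± 0.36 in CTRL and 2.75% ± 0.93 in Gln-depleted libraries (SD, n = 3). Its reads are not part of the protein-coding reads over which the shares were taken. Any other link with these shares was not tested.

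**Figure D1:**
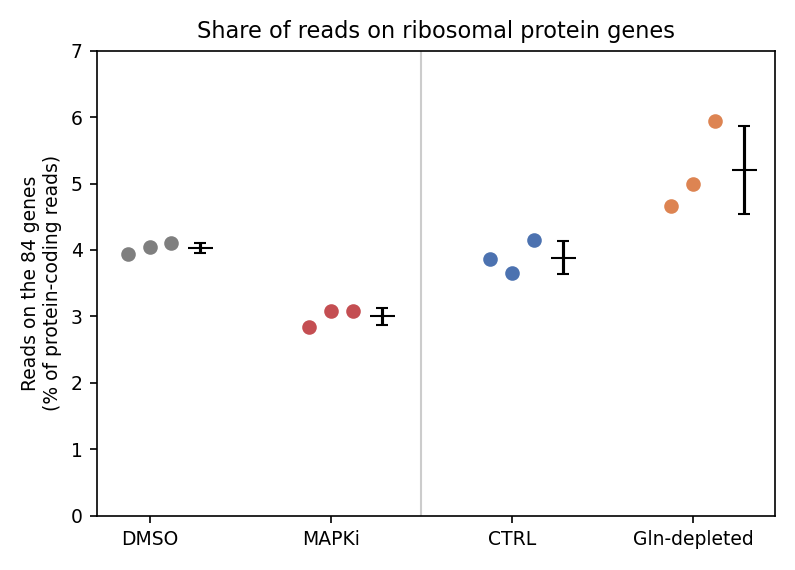
Reads on the 84 ribosomal protein genes as a percentage of the reads on protein-coding genes (y axis) in each of the 12 libraries, by group (x axis), with points for libraries and black marks for the mean ± SD of 3. The MAPKi libraries lay between 2.85 and 3.08%, below all DMSO libraries, and the Gln-depleted libraries between 4.66 and 5.94%, above all CTRL libraries.

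Nearly all members tested fell in response to MAPKi. Differential expression was tested with edgeR's quasi-likelihood test on 12595 protein-coding genes whose normalized counts averaged 10 or more, 76 of them members, and called genes had a p of 0.05 or less after Benjamini-Hochberg adjustment. Of the 76 members, 71 were lower with MAPKi than with DMSO, 2 were higher and 3 did not pass the test, whereas 38.8% of all genes tested were lower and 39.3% higher. Among the genes with 1000 or more normalized counts, to which most members belong, 44.0% were lower and 41.2% higher. Over the 72 well-counted members the log2 fold change ran from -1.72 to 0.23 with quartiles of -0.61 and -0.31 and a median of -0.46, a 1.38-fold decrease, and the median of all genes tested was 0.01. Every MAPKi library was below every DMSO library for 68 of these 72 members, as for 40.2% of all genes. The replicates lay close together, with a median SD of 0.04 on the log2 scale within either group. Against a fold change of 1.5, the threshold for downregulated mRNAs, 14 of the 76 members were called downregulated and 0 upregulated, whereas 18.4% of all genes were called downregulated and 17.2% upregulated. The share of members past the threshold was thus near that of all genes.

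**Figure D2:**
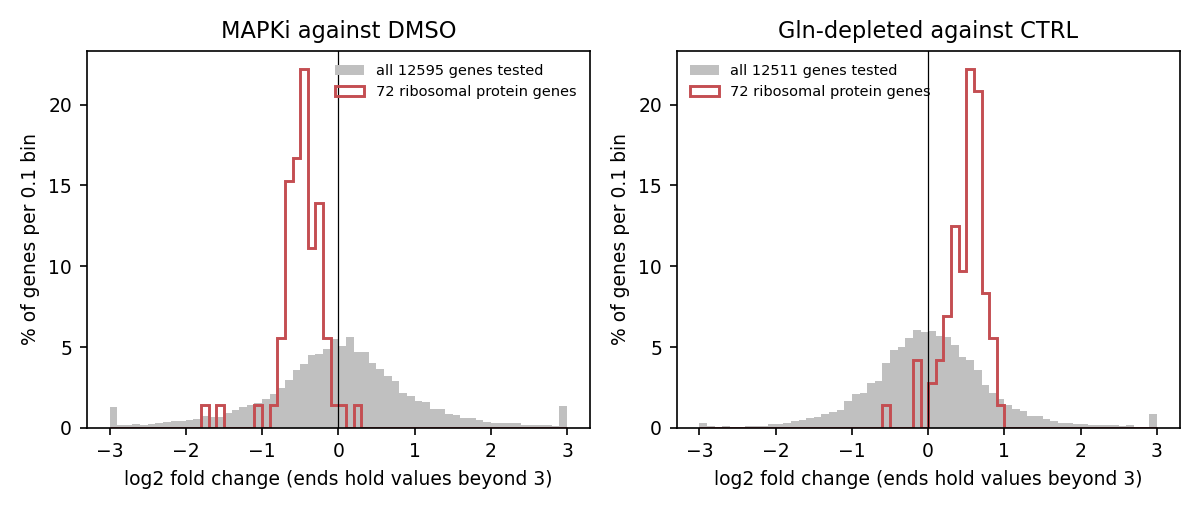
Distribution of log2 fold changes (x axis, bins of 0.1) as a percentage of genes (y axis) for all genes tested (grey) and for the 72 well-counted ribosomal protein genes (red line), MAPKi against DMSO on the left and Gln-depleted against CTRL on the right. The members form a narrow peak on either side of 0, with medians of -0.46 and 0.54, while the medians of all genes tested were 0.01 and 0.00.

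The largest falls in response to MAPKi among the 72 well-counted members were those of 2 paralogues, RPL39L and RPL22L1. RPL39L, the paralogue of the exit-tunnel protein RPL39 that is best known from testis and cancer cells, had 997, 979 and 1009 normalized counts with DMSO and 303, 290.4 and 313 with MAPKi. All MAPKi libraries lay far below the DMSO libraries. Its log2 fold change was -1.72 ± 0.06 (SE, edgeR adjusted p = 1.19e-08), a 3.29-fold decrease. RPL22L1, the paralogue of RPL22, an RNA-binding protein on the surface of the large subunit, had 7300.4, 7018 and 7459.7 normalized counts with DMSO and 2537, 2366 and 2574 with MAPKi. Its log2 fold change was -1.54 ± 0.05 (edgeR adjusted p = 8.47e-09), a 2.91-fold decrease. Their partners fell far less, RPL39 by 0.30 and RPL22 by 0.25 on the log2 scale (edgeR adjusted p = 4.68e-04 and 0.0036). There were 212 ± 10.7 reads of RPL22L1 for every 100 of RPL22 with DMSO and 86.2 ± 6.92 with MAPKi (SD, n = 3), so that the order of the 2 genes' read counts changed, and 8.64 ± 0.296 reads of RPL39L for every 100 of RPL39 with DMSO and 3.23 ± 0.0536 with MAPKi. These ratios were not tested.

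RPS27L, which encodes a paralogue of the small-subunit protein RPS27 and is known as a target of p53, moved the other way. It had 2609, 2633 and 2680.2 normalized counts with DMSO and 3007, 3171 and 3119.5 with MAPKi, and the groups did not overlap. It rose by 0.23 ± 0.04 on the log2 scale (edgeR adjusted p = 4.48e-04), a 1.17-fold increase, while RPS27 fell by 0.16 (edgeR adjusted p = 0.00944). The value of RPS27 was 0.20 after correction for a trend with exonic length, so that its direction is uncertain. With the same correction RPS12, which fell by 0.54 ± 0.04, had a value of 0.19. The remaining 2 expressed paralogues fell much as their partners did, RPL7L1 by 0.50 and RPL7 by 0.63, and RPL26L1 by 0.39 and RPL26 by 0.45, all on the log2 scale (edgeR adjusted p between 2.01e-06 and 4.97e-05). The other member called higher, RPS2, had 1220.0, 22.3 and 24.7 normalized counts with MAPKi and 17.1, 30.6 and 19.2 with DMSO, so that its log2 fold change of 4.23 rested on MAPKi replicate 1, and without that library it was 0.07 (edgeR adjusted p = 0.87).

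**Figure D3:**
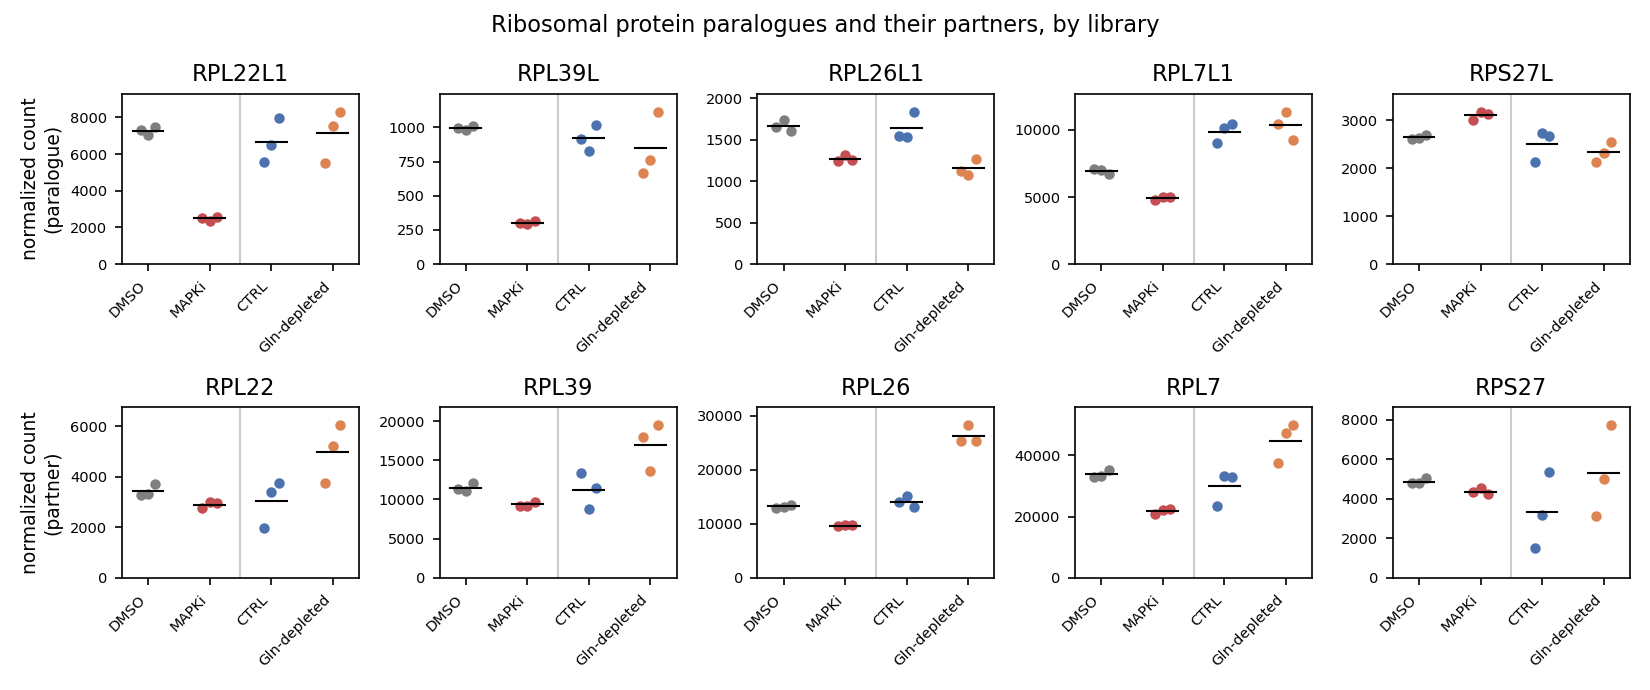
Normalized counts (y axis, from 0) of 5 ribosomal protein paralogues (upper row) and of their partners (lower row) in the 4 groups (x axis), with a point for each library and a line at the mean of 3; counts were normalized within each experiment, on either side of the grey line. RPL22L1 and RPL39L were far lower in all MAPKi libraries than in DMSO libraries, RPS27L was higher, and the means of the partners were higher in Gln-depleted than in CTRL libraries, while RPL26L1 was lower.

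Members of both subunits were affected by MAPKi, where 38.8% of all genes were lower and 39.3% higher. Without paralogues, 44 of 44 tested large-subunit members fell (median log2 fold change -0.46), and of 27 tested small-subunit members 23 fell, 1 rose (RPS2) and 3 did not pass the test (median -0.47). Well-counted members past the fold-change threshold, beside the paralogues RPL39L and RPL22L1, included RPL35, RPS26, RPL5, RPL14, RPS15, RPSA, RPL36 and RPL10A. RPL35, which lies at the exit of the tunnel through which the new peptide leaves the ribosome, had 12057, 12434 and 12539 normalized counts with DMSO and 6021, 6156 and 6029.9 with MAPKi. It fell by 1.02 ± 0.04 on the log2 scale (edgeR adjusted p = 2.84e-08), the largest fall among the 72 members after those of the paralogues. RPS26, which lines the mRNA exit channel of the small subunit, had 8444, 8570.5 and 8424 normalized counts with DMSO and 4839, 4767 and 4895 with MAPKi and fell by 0.81 ± 0.04 (edgeR adjusted p = 8.93e-08). For RPL14, RPS15, RPSA, RPL36 and RPL10A the log2 fold changes were between -0.74 and -0.68.

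The mRNAs of proteins with a known role beyond the common core fell by different amounts. RPL5 and RPL11, which carry the 5S ribosomal RNA into the large subunit and can bind MDM2 outside the ribosome, fell to different extents. RPL5 had 10863, 11594 and 12091 normalized counts with DMSO and 6372, 7006 and 6929 with MAPKi (-0.77 ± 0.06 on the log2 scale, edgeR adjusted p = 1.7e-06). RPL11 had 18514, 19782 and 20671 with DMSO and 16784, 17648 and 16142 with MAPKi (-0.22 ± 0.05, edgeR adjusted p = 0.00471). In the stalk, the flexible arm of the large subunit that recruits translation factors, all 4 members fell, from RPLP0, the base of the stalk (-0.66 ± 0.05), and RPL12 (-0.60 ± 0.06) to RPLP1 (-0.45 ± 0.05) and RPLP2 (-0.21 ± 0.04). RPS6, the small-subunit protein phosphorylated by the S6 kinases, fell by 0.56 ± 0.05, and RPS27A, which is made as a fusion to ubiquitin, by 0.57 ± 0.04. Of 8 genes for proteins around the exit tunnel all 8 fell, as did 5 of 5 for the path of the mRNA. So did 9 of 9 genes mutated in Diamond-Blackfan anaemia, where RPS10 is limited as described above. Of all members tested 71 of 76 were lower, and of all genes 38.8%.

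There were 4 genes for small-subunit proteins that are ubiquitinated when ribosomes collide. RPS3 and RPS20 fell by 0.63 ± 0.04 and 0.45 ± 0.05, and RPS2 and RPS10 were poorly counted. RPS10 had 61.0, 75.0 and 33.7 normalized counts with DMSO and 26.1, 14.5 and 17.6 with MAPKi (-1.53 ± 0.35, edgeR adjusted p = 0.00315), and adding the reads of its pseudogene rows gave 0.080 (edgeR adjusted p = 0.693). RPL17, at the tunnel exit, had 73.8, 77.0 and 86.6 with DMSO and 18.1, 25.6 and 25.6 with MAPKi (-1.77 ± 0.21, edgeR adjusted p = 4.44e-05).

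RPS4X, RPS21 and RPS29 were the 3 members that did not pass the test with MAPKi. RPS4X, a small-subunit protein encoded on the X chromosome, had 28685, 29482 and 29500.2 normalized counts with DMSO and 28323, 30631 and 30876 with MAPKi, ranges that overlapped (0.04 ± 0.05, edgeR adjusted p = 0.498). RPS21 had 13997, 13737 and 14203 with DMSO and 13834, 13075 and 13875 with MAPKi (-0.04 ± 0.04, edgeR adjusted p = 0.408). RPS29 varied more between replicates, with 21236, 23097 and 19392 with DMSO and 19770.4, 21141 and 18215 with MAPKi (-0.11 ± 0.07, edgeR adjusted p = 0.211). The smallest falls that passed the test were those of RPS28 (-0.12 ± 0.04), and RPL41 (-0.13 ± 0.05). RPL41 lost its call without DMSO replicate 3. RPS28 lost its call without DMSO replicate 2 (edgeR adjusted p = 0.0550), without MAPKi replicate 2 (0.0544) and in the 12-library fit (0.123), and its log2 fold change was 0.047 after correction for a trend with coding length.

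In response to Gln depletion, most members rose instead. Across all genes tested, same-numbered libraries of this experiment deviated together, so the fit held a term for the replicate number. Over the 79 members tested the correlations of these deviations were 0.50, -0.15 and 0.16 for replicates 1, 2 and 3, so that those of replicate 2 did not deviate together. Of the 79 members tested among 12511 genes, 58 were higher in Gln-depleted than in CTRL libraries, 2 were lower and 19 did not pass the test, whereas 25.1% of all genes were higher and 23.8% lower, and 29.4% and 25.1% of those with 1000 or more normalized counts. Over the 72 well-counted members the log2 fold change ran from -0.50 to 0.92 with a median of 0.54, a 1.45-fold increase, beside 0.00 for all genes tested. Every Gln-depleted library was above every CTRL library for 42 of these 72 members, as for 20.1% of all genes. Past a fold change of 1.5, 3 of the 79 members were called upregulated and 0 downregulated, whereas 8.84% of all genes were upregulated and 7.82% downregulated. Within-pair medians of the 72 members were 0.36 in replicate 1, the only pair of experimental batch 1, and 0.58 and 0.59 in replicates 2 and 3, and 65, 68 and 68 of the 72 members were higher in the Gln-depleted library of the pair.

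The call of most members rested on the replicate term of the fit. Without the term for the replicate number, 14 members were called higher, all of them among the 58 (RPL3, RPL4, RPL9, RPL10, RPL13, RPL13A, RPL26, RPL32, RPL34, RPLP0, RPS4X, RPS6, RPS12 and RPS13). Without replicate 2, 29 were called, 28 of them among the 58, without replicate 3, 47, and without replicate 1, which leaves experimental batch 2 alone, 60. The median over the members kept between 0.46 and 0.57 in these 3 fits. The spread between replicates was wider than in the MAPKi experiment, with a median SD of 0.22 on the log2 scale within CTRL and 0.21 within Gln-depleted libraries over the 72 members. Members with short coding sequences were relatively high in replicate 3 of both groups, where the deviation from the group mean correlated with the log2 coding length at r = -0.44 in CTRL and -0.46 in the Gln-depleted library (72 members of 1 library each). The part of this in the fold changes was not tested beyond a correction for a trend with coding length, under which 54 members were higher.

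RPS12, RPL26 and RPL10 were the members past the fold-change threshold. RPS12, a protein of the small subunit's head, had 11472, 12424 and 16005 normalized counts in CTRL and 20711, 24541 and 30162 in Gln-depleted libraries. All Gln-depleted libraries were above all CTRL libraries, and it rose by 0.92 ± 0.10 on the log2 scale (edgeR adjusted p = 6.14e-04, against the threshold 0.0154). RPL26, at the tunnel exit, had 14079.5, 15088 and 13174 in CTRL and 25252, 28222 and 25354 in Gln-depleted libraries (0.90 ± 0.10, edgeR adjusted p = 6.49e-04, against the threshold 0.0182). RPL10, which is fitted late in large-subunit assembly beside the peptide-forming centre, had 31442, 21630.4 and 26036 in CTRL and 50061, 40788 and 50362 in Gln-depleted libraries (0.85 ± 0.11, edgeR adjusted p = 0.00102, against the threshold 0.0396). Neither RPL26 nor RPL10 overlapped between groups. With DESeq2, and likewise without the term for the replicate number, 0 members passed this threshold. Without replicate 2 or without replicate 3, 1 member passed it, and 10 did without replicate 1.

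RPL12 and RPLP0 of the stalk and RPS6 rose to a similar degree without passing the threshold. RPL12 had 14229.5, 16559 and 19396 normalized counts in CTRL and 20282, 33324 and 42330.0 in Gln-depleted libraries (0.88 ± 0.14, edgeR adjusted p = 0.00226), and RPLP0 had 68527, 50984 and 50389 in CTRL and 96250.4, 102236 and 98864 in Gln-depleted libraries (0.82 ± 0.13, edgeR adjusted p = 0.00211). RPLP1 rose by 0.50 ± 0.10 and RPLP2 by 0.39 ± 0.11. Thus 4 of 4 stalk members rose, where 25.1% of all genes were higher. RPS6 had 17760.0, 20471 and 22451 in CTRL and 27331, 35905 and 41887 in Gln-depleted libraries, with no overlap (0.78 ± 0.11, edgeR adjusted p = 0.00138). RPS27A rose by 0.63 ± 0.11, RPL5 by 0.48 ± 0.11 and RPL11 by 0.47 ± 0.11, the latter with overlapping groups. RPS3 and RPS20 rose by 0.36 ± 0.12 and 0.63 ± 0.12.

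The large-subunit members other than paralogues rose in 37 of 45 cases (median 0.57), and the small-subunit members in 21 of 29, where 1 fell (RPS10, -1.05, or 1.07 with the reads of its pseudogene rows) and 7 did not pass the test (median 0.53). Around the exit tunnel 5 of 8 rose, along the mRNA path 3 of 5, and of the genes mutated in Diamond-Blackfan anaemia 6 of 9. Of all members tested 58 of 79 were higher, and of all genes 25.1%. The role counts were not tested against these shares. RPS26, which had fallen with MAPKi, had 7645, 6431 and 10244 normalized counts in CTRL and 6696, 6706 and 8760.5 in Gln-depleted libraries (-0.12 ± 0.11, edgeR adjusted p = 0.416), and RPL35 10315, 10907 and 14137 in CTRL and 10636, 14027 and 16631 in Gln-depleted libraries (0.21 ± 0.11, edgeR adjusted p = 0.155). The groups overlapped for both. RPS4X, in contrast, had 36411, 28884 and 25588 in CTRL and 52061, 48688 and 47903 in Gln-depleted libraries and rose by 0.72 ± 0.12 (edgeR adjusted p = 0.00222). RPS29 again varied between replicates, with 20417, 11159 and 20668 in CTRL and 21949.9, 9818 and 31626 in Gln-depleted libraries (0.18 ± 0.16, edgeR adjusted p = 0.383).

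The paralogues did not share the rise of their partners. None of the 5 expressed paralogues rose, whereas all 7 partners did, by between 0.59 (RPL7) and 0.90 (RPL26) on the log2 scale. Of all genes tested, 25.1% were higher. RPL26L1 had 1549.6, 1531 and 1837 normalized counts in CTRL and 1119, 1079 and 1272 in Gln-depleted libraries, each Gln-depleted library below each CTRL library. It fell by 0.50 ± 0.11 on the log2 scale (edgeR adjusted p = 0.0077). There were 11.7 ± 1.99 reads of RPL26L1 for every 100 of RPL26 in CTRL and 4.42 ± 0.597 in Gln-depleted libraries (SD, n = 3), a ratio that was not tested, and in the MAPKi experiment 12.7 ± 0.672 and 13.2 ± 0.305. RPL22L1 had 5564, 6491 and 7964 in CTRL and 5532, 7539.8 and 8297 in Gln-depleted libraries (0.09 ± 0.11, edgeR adjusted p = 0.529), RPL39L -0.15 ± 0.15, RPL7L1 0.06 ± 0.12 and RPS27L -0.10 ± 0.11 on the log2 scale (edgeR adjusted p between 0.45 and 0.682). Of the partners, RPL22 rose by 0.74 ± 0.12 and RPS27 by 0.75 ± 0.14, and both overlapped between groups while being higher in 3 of 3 pairs.

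**Figure D4:**
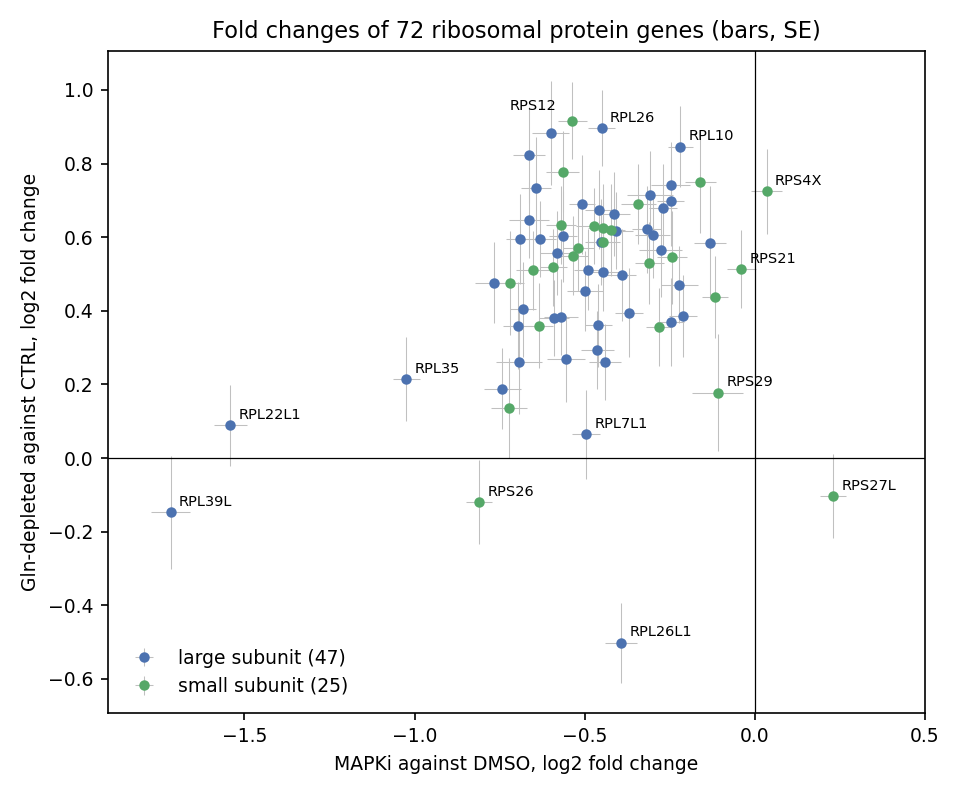
Log2 fold change with MAPKi (x axis) and with Gln depletion (y axis) of the 72 well-counted ribosomal protein genes, large subunit in blue and small subunit in green, with bars for the SE. Most genes lie in the upper left, lower with MAPKi and higher with Gln depletion, and RPL39L, RPL22L1, RPL26L1 and RPS27L lie apart.

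The difference between the responses was tested as a contrast in a fit of the 12 libraries. For 70 of 79 members the MAPKi fold change was lower than that of Gln depletion, and for 1, RPS27L, it was higher, whereas 33.8% of 12627 genes were lower and 31.1% higher. The median difference over the 79 members was -0.96 on the log2 scale, beside -0.02 for all genes. It was -1.41 for RPS12, -1.44 for RPLP0, -1.44 for RPL12, -1.59 for RPL22L1 and 0.38 for RPS27L (edgeR adjusted p = 2.16e-07, 6.77e-06, 1.56e-05, 2.46e-07 and 0.00263). RPL26L1, which was lower in both experiments, did not differ past the test (0.15, edgeR adjusted p = 0.121). Of the 76 members tested in both experiments, 56 were called lower with MAPKi and higher with Gln depletion, as 7.84% of the 12289 genes tested in both were. Across the 72 well-counted members, the fold changes of the experiments, which share no control libraries, correlated at r = 0.29 (Spearman's rho 0.23), and across all genes tested in both at r = 0.15. Each experiment was set against its own controls, since they were sequenced in different batches.

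**Figure D5:**
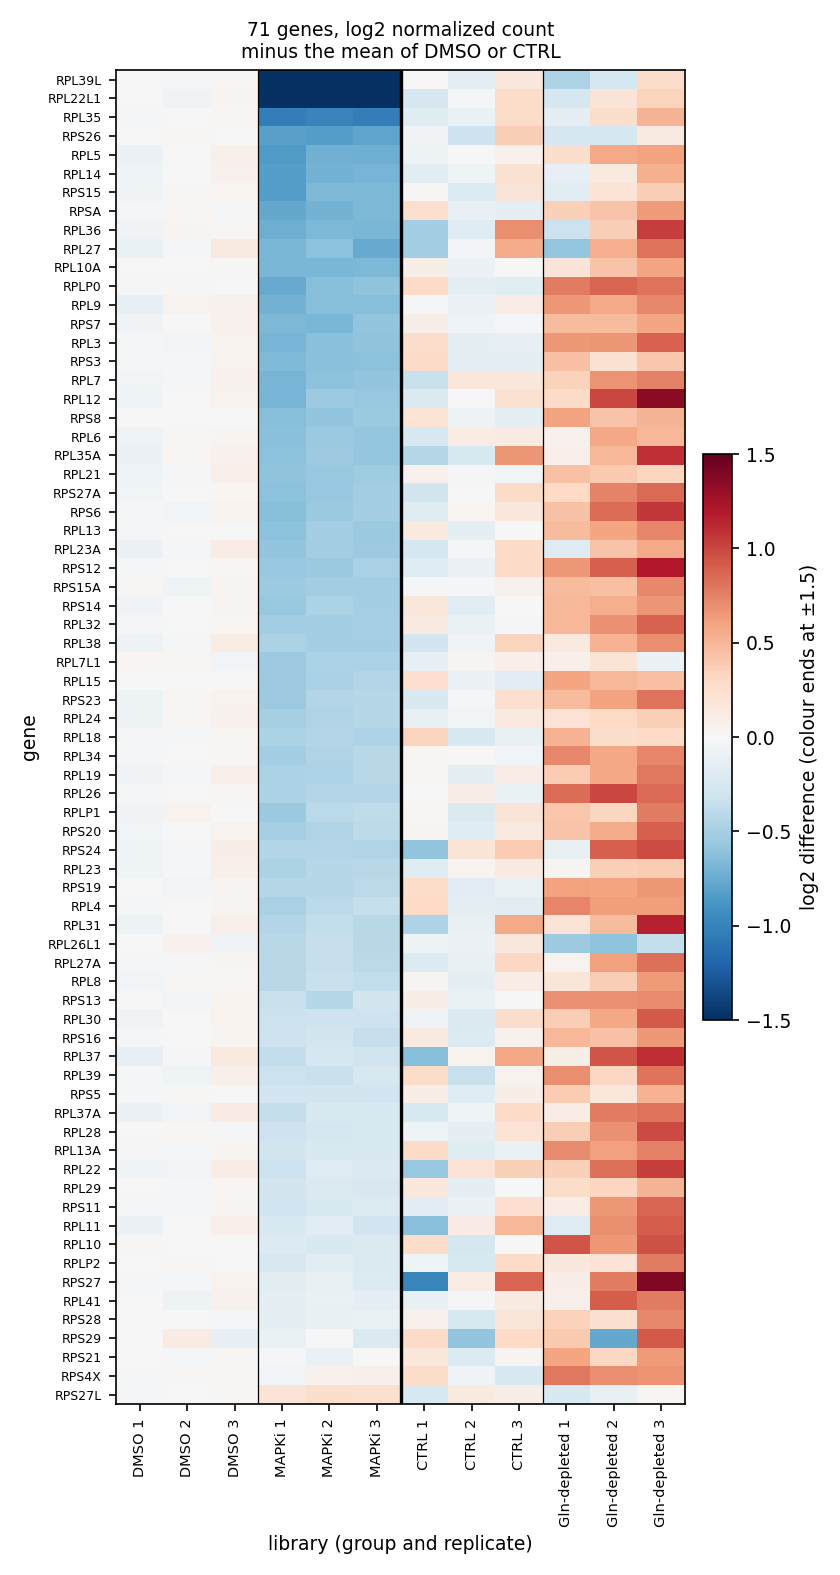
Log2 normalized count of 71 well-counted ribosomal protein genes (rows, ordered by the MAPKi log2 fold change) in each of the 12 libraries (columns), relative to the mean of the DMSO libraries on the left and of the CTRL libraries on the right; blue is lower, red is higher and the colours end at ±1.5. MAPKi libraries were uniformly lower but for the lowest rows, and Gln-depleted libraries were mostly higher with differences between replicates.

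Other genes of the same machinery were tested in the same fits. The mRNAs of ribosomal proteins outside the symbol pattern fell with MAPKi. The fall was 0.32 for FAU, a small-subunit protein fused to a ubiquitin-like one, 0.33 for RPL36AL and 0.40 for RACK1, the signalling scaffold on the small subunit. RPL36AL changed direction after correction for a trend with exonic length, under which it was higher with MAPKi, with a log2 fold change of 0.34. With Gln depletion RACK1 had 36314, 32183 and 36868 normalized counts in CTRL and 53142, 62877 and 70144 in Gln-depleted libraries and rose by 0.81 ± 0.12 on the log2 scale (edgeR adjusted p = 0.00168), and FAU rose by 0.39 ± 0.11 (edgeR adjusted p = 0.0211), while RPL36AL did not pass the test.

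Of 23 other genes with known TOP mRNAs, chiefly translation factors, 22 were tested. A promoter was at hand for 15 of the 23, and the motif searched above lay at a listed start in 12 of these, though not in VIM. With MAPKi, where 38.8% of all genes were lower, 16 fell and 1 rose (median -0.29), and with Gln depletion, where 25.1% were higher, 10 rose and 0 fell (median 0.34). EEF1A1, the elongation factor that brings aminoacyl-tRNA to the ribosome, had 311168, 228902 and 195779 normalized counts in CTRL and 536248, 460899.9 and 441276 in Gln-depleted libraries. It rose by 0.99 ± 0.11 (edgeR adjusted p = 4.94e-04), and with MAPKi it was the 1 that rose, by 0.15 ± 0.04 (edgeR adjusted p = 0.0124). That call was lost without DMSO replicate 1 or 2 or MAPKi replicate 2 or 3, where the adjusted p was between 0.0586 and 0.0794. TPT1, a growth-related protein, rose with Gln depletion by 1.14 ± 0.11 (edgeR adjusted p = 3.46e-04), the elongation factor EEF2 by 0.86 ± 0.13 and the poly(A)-binding protein PABPC1 by 0.77 ± 0.10. Falls with MAPKi included those of VIM, an intermediate filament protein (-1.23 ± 0.04), NPM1, a nucleolar chaperone (-0.99 ± 0.05), IPO5, an importer of ribosomal proteins into the nucleus (-0.91 ± 0.04), and EEF1B2 (-2.33 ± 0.72). The value of EEF1B2 rested on DMSO replicate 2, without which it was -0.87. VIM, NPM1 and IPO5 did not pass the test with Gln depletion, with log2 fold changes of -0.07, -0.19 and -0.06.

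Noncoding TOP transcripts that host small nucleolar RNAs rose with Gln depletion, by a median of 1.82 on the log2 scale. These were tested in a fit of all rows that averaged 10 or more normalized counts, in which 20.8% of 15897 genes were higher and 21.5% lower with Gln depletion, and 36.2% of 15973 lower and 35.7% higher with MAPKi. All 8 hosts tested were higher with Gln depletion, and 6 of 8 were lower with MAPKi. Of the 7 hosts with a promoter at hand, 3 had the motif at a listed start and 5 within 10 bases of it. GAS5 and SNHG1 had it at neither. ZFAS1 had 961, 1160.3 and 1272 normalized counts in CTRL and 4593, 8532 and 8165 in Gln-depleted libraries (2.57 ± 0.15, edgeR adjusted p = 1.48e-04), a 5.96-fold increase. GAS5, a growth-arrest transcript, had 1524, 1207 and 952 in CTRL and 4416, 4837 and 4576 in Gln-depleted libraries (1.90 ± 0.16, edgeR adjusted p = 4.56e-04). SNHG1 rose by 2.34 ± 0.12 and SNHG12 by 2.41 ± 0.24, and the Gln-depleted libraries of all 4 were above the CTRL libraries. With MAPKi, SNHG12 fell by 0.90 ± 0.16 and SNHG5, SNHG6 and SNHG1 by 0.45, 0.39 and 0.31, while ZFAS1 (-0.10 ± 0.06) and SNHG29 (0.01 ± 0.04) did not pass the test.

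A further list held genes of dedicated chaperones that escort single ribosomal proteins to the assembling subunits, and of ubiquitin ligases that remove unassembled ones. Of these genes, 8 of 10 tested fell with MAPKi and 0 rose, where 38.8% of all genes were lower and 39.3% higher. LTV1, which escorts RPS3 into the small subunit, fell by 0.97 ± 0.07, BCCIP, the chaperone of RPL23, by 0.80 ± 0.06, AAMP, the counterpart of a yeast chaperone of RPL10, by 0.74 ± 0.04 and GRWD1, the chaperone of RPL3, by 0.55 ± 0.05. With Gln depletion, 4 of 11 rose and 4 fell, where 25.1% of all genes were higher and 23.8% lower. The ubiquitin ligase HUWE1 had 51628, 34535 and 30465 normalized counts in CTRL and 86943, 93194 and 67321 in Gln-depleted libraries and rose by 1.11 ± 0.14 (edgeR adjusted p = 9.78e-04), whereas UBE2O, which marks unassembled ribosomal proteins for degradation, fell by 0.84 ± 0.13 (edgeR adjusted p = 0.00212). AAMP fell by 0.72 ± 0.14. PDCD2L was called lower, with 209, 1.90 and 4.47 normalized counts in CTRL and 1.02, 0.97 and 1.21 in Gln-depleted libraries, a value that rested on CTRL replicate 1.

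Genes that act on TOP mRNAs or on RPS6 moved in both directions with MAPKi, 3 of 9 tested falling and 5 rising, where 38.8% of all genes were lower and 39.3% higher. RPS6KA3, a kinase downstream of ERK that phosphorylates RPS6, fell by 1.10 ± 0.07, LARP1B by 0.90 ± 0.07 and LARP1, which binds the TOP motif, by 0.40 ± 0.05, whereas MTOR rose by 0.55 ± 0.04 on the log2 scale. With Gln depletion 3 of 9 rose and 0 fell, where 25.1% of all genes were higher and 23.8% lower. RPS6KA2 rose by 1.19 ± 0.18 (edgeR adjusted p = 0.00189), LARP1B by 0.59 ± 0.21 and RPTOR by 0.32 ± 0.11, and the last 2 lost the call under several alternatives. Of 10 genes of the response to ribosome collisions, 7 fell and 2 rose with MAPKi, against the same shares of all genes. USP10, which removes ubiquitin from small-subunit proteins, fell by 0.89 ± 0.04, the collision-activated kinase MAP3K20 by 0.87 ± 0.06 and PELO, which helps split stalled ribosomes, by 0.76 ± 0.05. ZNF598, the ligase that ubiquitinates RPS10 and RPS20, was called higher on 128, 0 and 0.88 normalized counts against 0, 0.99 and 0.96 and rested on MAPKi replicate 1, and the call was lost without any 1 of the DMSO libraries. With Gln depletion 3 of 9 rose and 0 fell, namely RNF10, which ubiquitinates RPS2 and RPS3 (0.66 ± 0.11), USP21 (0.59 ± 0.17) and ASCC3 (0.46 ± 0.11).

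The study examined the amino acid composition of regulated gene products, and the members differ from other genes in this respect. In GENCODE coding sequences, lysine made up 12.8% ± 4.3 (SD over 84 members) of their residues and arginine 9.86% ± 4.78, against 6.03% ± 2.83 and 5.87% ± 2.23 in the 12516 tested genes with a coding sequence. Glutamate made up 4.98% ± 2.32 and aspartate 3.74% ± 1.92 of their residues, against 7.20% ± 2.72 and 4.82% ± 1.65. The median coding length was 454.5 bases for members and 1431 for tested genes. Among the 72 well-counted members, which share their libraries, the log2 fold change had r = -0.15 with lysine content and r = -0.11 with glutamate content for MAPKi, and r = -0.13 and 0.11 for Gln depletion. With the log2 coding length it had r = -0.14 for MAPKi and 0.18 for Gln depletion, and without the 5 paralogues -0.39 and 0.11, so that among the other 67 members those with longer coding sequences tended to fall more with MAPKi. The 40 members with the motif at a listed start had median log2 fold changes of -0.45 with MAPKi and 0.58 with Gln depletion. The 18 with a promoter but no motif at a listed start had -0.50 and 0.42. Several of these 18, such as RPL4 and RPS26, have the motif within 10 bases of a start, and the paralogues RPL7L1, RPL26L1 and RPS27L are among them. The split is thus not one of mRNAs with and without a TOP motif. The ranges of both sets overlapped widely.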

How the data were processed

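RNA-seq of 12 libraries of A375 cells was analysed. According to the submitters' processing notes and the paper's methods, reads were trimmed with fastp 0.20.1, aligned with HISAT2 2.2.1 to GRCh38.p13 and counted per gene with HTSeq 0.13.5. The deposited values are raw counts per gene, not normalized by the authors, with 44659 rows and 0 columns of values left unused. Row names were matched to GENCODE and RefSeq by symbol (36524) or synonym (527), 5082 rows were copies of a name and 2526 were not matched. Promoter and protein-coding information came from tables of GRCh38.p14, and since protein sequences were not used here, amino acid contents and coding lengths were computed from GENCODE coding sequences, which departs from the design as first written.

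Protein-coding genes that averaged 10 or more TMM-normalized counts were tested with edgeR 4.0.16 (quasi-likelihood test, R 4.3.3), p-values were adjusted by the Benjamini-Hochberg method and genes were called at 0.05. The second test was against a fold change of 1.5. MAPKi was compared with DMSO without a block and Gln-depleted with CTRL with a block for the number in the column name. Deviations from the group means of same-numbered libraries correlated at 0.584, 0.442 and 0.386 in the Gln depletion experiment, and at 0.069, 0.058 and 0.056 in the MAPKi experiment, so that the numbers paired libraries in the former alone. The difference of the fold changes was tested in a fit of the 12 libraries. The tests were checked on simulated data with 100 genes changed by each fold and all other genes unchanged. At a 1.4-fold change, 98 of 100 were called in the MAPKi setting but only 16 in that of Gln depletion. At a 2-fold change, 100 and 97 were called, and 99 and 11 passed the threshold of 1.5. In the data far more genes were called, 25.1% higher and 23.8% lower with Gln depletion, so that the cutoff after adjustment was less strict. The simulated shares are thus no estimate of how many changed members the tests found. Members not called with Gln depletion, or not past the threshold there, can still have changed by such amounts.

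Named are the 8 members with the largest called rise and fall in each comparison, every member past the fold-change threshold, the members of the role lists, and up to 4 genes of each other list with the largest called change. RPL41, RPS4X, RPS21, RPS29 and SNHG29 were named after their values were seen. Results of some single genes are not reported here. The members and lists were chosen with earlier results of these data known. Alternatives were DESeq2 1.42.0, its size factors, other filters, all rows, corrections for trends with GC content, exonic length and coding length (5 degrees of freedom, the last chosen after seeing the data), pseudogene and copy rows added to their members, the 12-library fit, the block and the leaving out of single libraries. Depth was 31056296 to 40071368 counts per library, and counting error is the only error that a floor of 3 counts covers.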

Additional observations from a re-analysis of the deposited data

Results flagged for a closer look

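These 10 results concern rows of the count table outside the members, named as pseudogenes of ribosomal protein genes (P and a number after the symbol) or as numbered copies of a member's name. They drew attention because such a row, which is no member, was higher in treated libraries than in controls past the edgeR test. Over all rows tested, 35.7% were higher with MAPKi and 20.8% with Gln depletion. Other pseudogene rows were lower past the test, such as RPL23AP7, RPL23P8 and RPSAP58 with MAPKi and RPL23AP82 and RPS14P3 with Gln depletion. The reads of pseudogene and copy rows entered the values above only where these rows were added to their members, as for RPS10. Whether their reads came from these loci or from the members was not tested.

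With MAPKi, RPLP0P2 had 2.14, 1.97 and 3.85 normalized counts with DMSO and 22.1, 22.3 and 20.3 with MAPKi (log2 fold change 2.95, edgeR adjusted p = 1.61e-04). RPS10P7 had 52.4, 38.5 and 45.2 with DMSO and 90.4, 97.9 and 76.8 with MAPKi (0.95, edgeR adjusted p = 0.00142), and RPL32P3 changed by 0.40 (edgeR adjusted p = 0.00593). While the members RPLP0 and RPL32 fell, these rows were higher.

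With Gln depletion, RPLP0P2 had 1.97, 4.76 and 3.58 normalized counts in CTRL and 206, 161 and 54.3 in Gln-depleted libraries (5.12, edgeR adjusted p = 7.63e-04). RPS10P7 changed by 2.49, RPL13AP20 by 2.23, RPL23AP53 by 1.32 and RPL13AP5 by 0.72 on the log2 scale (edgeR adjusted p = 0.00208, 0.0133, 0.00168 and 0.0158). Among copy rows, RPS18_1 changed by 0.89 (edgeR adjusted p = 0.0285) and RPS9_8 by 5.50 (edgeR adjusted p = 0.0126). RPS9_8 had 0.99, 0 and 0 normalized counts in CTRL and 2.04, 73.5 and 2.41 in Gln-depleted libraries, so that its value rested on Gln-depleted replicate 2.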

How the results depend on the processing

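Results were recomputed under 18 settings for MAPKi and 13 for Gln depletion. The median over the members kept its direction in all of them, and so did the counts of members lower with MAPKi (66 to 72). With MAPKi, the median (-0.47) was -0.42 with a GC-content correction, with and without the replicate block, and -0.40 with a coding-length correction. Members called higher (2) were 1 with DESeq2 and 6 with an exonic-length correction, with and without the replicate block. Members lower past the fold-change threshold (14) were 8 in the 12-library fit, and members higher past it (0) were 1 there and 1 with a minimum of 2 reads. The replicate block alone gave 72 lower, 2 higher and 19 past the threshold. Leaving out single libraries gave a median of -0.50 to -0.45, 70 to 71 lower, 1 to 2 higher, 13 to 17 lower past the threshold and 0 to 1 higher past it.

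With Gln depletion, no replicate block gave 14 members higher (58 with it) and 0 lower (2 with it), and DESeq2 and the added pseudogene and copy rows gave 1 lower each. Members past the threshold (3) were 0 with DESeq2 and without the replicate block, 5 with a GC-content correction, and 6 with an exonic-length correction and in the 12-library fit. Leaving out a replicate gave a median of 0.46 to 0.57, 29 to 60 higher, 0 to 2 lower, 1 to 10 higher past the threshold and 0 lower past it. For the difference, no replicate block gave 60 members lower and 0 higher (70 and 1 with it), and a block in both experiments gave 70 and 1.

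Of the named genes, RPL36AL, RPS12 and RPS27 reversed with MAPKi under an exonic-length correction, to 0.34, 0.19 and 0.20 (0.35, 0.19 and 0.20 with the replicate block), RPS28 under a coding-length correction, to 0.047, and RPS10 with pseudogene and copy rows added, to 0.080 with MAPKi and 1.07 with Gln depletion. The cause was not tested. The exonic length counts retained introns, which limits that correction. For MAPKi 1398 of the other values kept direction and call, 28 lost and 5 gained the call, and for Gln depletion 933, 81 and 20. Genes with few counts, overlapping genes and genes with copies are limited by depth and counting.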
